A study of Mus musculus with 22 samples.

Results

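Alveolar type 1 (AT1) cells are the thin, flat epithelial cells that line most of the air-facing surface of the lung and share a basement membrane with the capillaries, so that gas can cross. They hold the alveolar barrier tight, move sodium, chloride and water across it, and send matrix and growth signals to neighbouring cells. Alveolar type 2 (AT2) cells, which make surfactant, are their progenitors in the adult lung. In these data 238 cells met a rule for AT1 cells, of 93055 passing cells in 11 tissue libraries and 95843 passing cells in the whole series. The cells were chosen by measured transcripts: at least 200 genes, at most 25% mitochondrial UMIs, a UMI (unique molecular identifier, 1 captured transcript) in at least 3 of 7 genes (Ager, Hopx, Rtkn2, Akap5, Aqp5, Cldn18 and Vegfa) with Ager or Rtkn2 among them, under 5 Sftpc UMIs, and no UMI of Ptprc, Pecam1 or Upk3b. Levels of these gate genes are therefore a description and were not tested between cell classes.

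The study asked how loss of the sodium leak channel gene Nalcn affects the shedding of cells from solid organs into blood. Each tissue library pooled kidney, liver, lung and stomach with epididymis (males) or uterus (females) of aged mice, and was profiled with droplet 3′ single-cell RNA sequencing. Every mouse carried the alleles Prom1-CreERT2 and Rosa26ZSG, a tamoxifen-inducible recombinase driven by the Prom1 promoter and a green lineage reporter. The 5 wt libraries were titled Nalcn-wt with no further allele in the strain entry, and the strain entry added Nalcn-het in the 2 het and Nalcn-null in the 2 null libraries. Replicates 1, 2 and 3 of wt were male at 571, 571 and 608 days and replicates 4 and 5 female at 611 and 654 days. Both het libraries were male at 551 days, null replicate 2 was male at 552 days, and null replicate 3 was female at 611 days. In a further 2 libraries the title and the strain entry named different genotypes, so they had no group. Recombination is limited to cells in which the Prom1 promoter is active, the labels name no sort of the tissue cells and no animals, so p-values measure the spread between libraries, which may be partly technical. The share of lung in each pool is not given in the labels, and in pooled organs fewer AT1 cells, less lung and fewer captured cells cannot be told apart.

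Tissue libraries with a group held 8571019 to 139793927 UMIs. AT1 cells had a median of 1621.5 UMIs, 892 genes and 13.7% mitochondrial UMIs, and their depth ran from 524 to 70812 UMIs. Median depth was lowest in null replicate 2, at 877 UMIs, and highest in wt replicate 1, at 3571 UMIs. No member barcode was shared between member sets, and 7 also occurred in the barcode list of some other library. Xist, the transcript of the silenced X chromosome, was detected without Y-linked transcripts in 20 of 27 AT1 cells of null replicate 3, and 1 cell of that library held both. In the male libraries with a group no AT1 cell held Xist.

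AT1 cells were rare in every library. In wt tissue they numbered 9, 43, 7, 20 and 0 in replicates 1 to 5, of 5941, 18242, 5601, 13067 and 287 passing cells. In het tissue they numbered 55 of 7498 and 2 of 4048 passing cells, and in null tissue 33 of 8710 and 27 of 9364. The libraries without a group held 3 of 4323 and 39 of 15974. Over all tissue libraries the share was 0.256% (exact 95% Clopper-Pearson interval 0.224 to 0.290%), where intervals cover counting error only. Wt replicate 5 had too few cells to show a share of this size, since 0 of 287 cells allows up to 1.05%, yet it counts as 1 of the 5 wt values below.

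**Figure D1:**
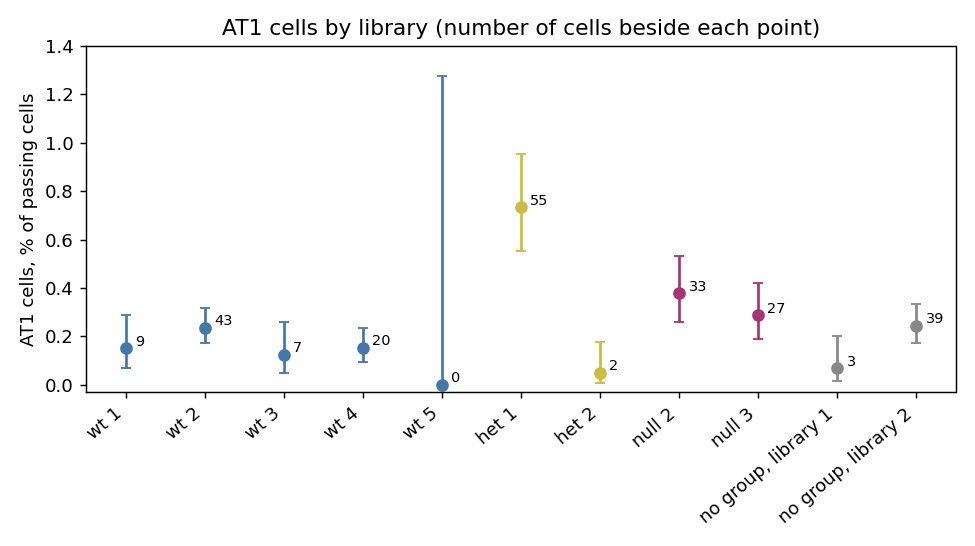
AT1 cells as a percent of passing cells in each tissue library, with exact 95% Clopper-Pearson intervals and the number of AT1 cells beside each point. Both null libraries (0.379% and 0.288%) lay above all 5 wt libraries (0 to 0.236%), while the 2 het libraries lay far apart (0.734% and 0.0494%).

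The share of cells that met the full rule was higher in null than in wt libraries. It was 0.133% ± 0.0852 (SD, n = 5) in wt and 0.334% ± 0.0640 (SD, n = 2) in null libraries, a difference of 0.201 percentage points (exact two-sided permutation p = 0.0476, the smallest that 21 arrangements allow). The 2 groups did not overlap. This rests on the step that asks for low Sftpc and no Ptprc, Pecam1 or Upk3b. It left out 40 of 49, 199 of 242, 7 of 14, 21 of 41 and 1 of 1 cells with 3 markers in wt replicates 1 to 5. In null replicates 2 and 3 it left out 9 of 42 and 24 of 51. Before that step wt replicates 1 and 2 held more such cells per passing cell than either null library. The share before that step was not tested. The call on the full rule was lost when cells were first thinned to 1000 UMIs (exact permutation p = 0.0952) and when called doublets were left out (exact permutation p = 0.0952). It was also lost when mitochondrial UMIs were held to 10% (exact permutation p = 0.190). The same held without any 1 wt library (exact permutation p = 0.0667 each, since fewer libraries raise the smallest p possible). Leaving out null replicate 2 or 3 left 1 null library, too few for a call. The differences were then 0.155 and 0.246 percentage points. In het libraries the mean was 0.391% ± 0.484 (SD, n = 2), and the difference from wt did not pass the test (exact permutation p = 0.238). That mean rested on het replicate 1: without it, the difference was -0.0836 percentage points.

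AT2 cells, gated on at least 5 Sftpc UMIs and 3 of 5 further surfactant genes, were fewer still, at 70 in all. Only wt replicate 2 (17 AT2 cells) and null replicate 2 (19) had 10 or more among libraries with a group, so AT1 cells per AT2 cell were not tested between genotypes. The ratio was 2.53 (95% interval 1.41 to 4.73) in wt replicate 2 and 1.74 (0.959 to 3.23) in null replicate 2, and these intervals overlapped. The order turned on thinned cells (0.705 in wt replicate 2 and 0.75 in null replicate 2) and without AT1 cells with markers of another class (0.882 and 1.42). The gates were applied anew to thinned cells, so the sets changed. In wt replicate 2 AT2 cells rose from 17 to 61 and AT1 cells stayed at 43. In null replicate 2 AT2 cells went from 19 to 16 and AT1 cells from 33 to 12. The other libraries with AT2 cells held 1 to 13, and their ratios ran from 0.6 to 27.5.

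No AT1 cell was found in blood. Its libraries of ZsGreen+ cells were 2 wt, 4 het and 4 null, from males and females at 551 to 649 days, and the single library of mononuclear cells came from a wt male at 120 days. The same rule met 0 of 2109 passing cells in the 10 libraries of ZsGreen+ cells sorted from peripheral blood and labelled non-tumour (up to 0.142% is allowed by a count of 0) and 0 of 679 in the library of blood mononuclear cells (up to 0.442%). No blood cell reached 3 markers with Ager or Rtkn2 among them. Of 14811237 UMIs in blood, Rtkn2, Aqp5 and Cldn18 had 0, Akap5 7, Ager 26, Vegfa 104 and Hopx 816.

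The AT1 label was checked with 18 AT1 markers that the gate did not use. At least 3 of them were detected in 217 of 238 cells (91.2%) and at least 9 in 159 cells (66.8%), with a median of 11. All 18 were higher in AT1 cells than in the other passing cells of the same library in each of the 5 libraries with a group and at least 10 AT1 cells. Among all 7548 genes at 20 CPM (UMIs of a gene per 1000000 UMIs of the class in a library) or more in either class, 3128 were higher in AT1 cells on average and 709 (9.39%) were higher in all 5 libraries, the background for the list counts that follow. The median fold over other cells, with 5 CPM added to both, was 26.0 for the 18 markers and 0.889 for these 7548 genes. This comparison is a description, because other transcripts of a cell chosen by its transcripts are not independent of the choice. Gate genes were counted where a list held them, among them Aqp5 for transport, Cldn18 for junctions and Vegfa for signalling. They are high in AT1 cells by the rule, so the counts and median folds of such lists are partly fixed by it.

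**Figure D2:**
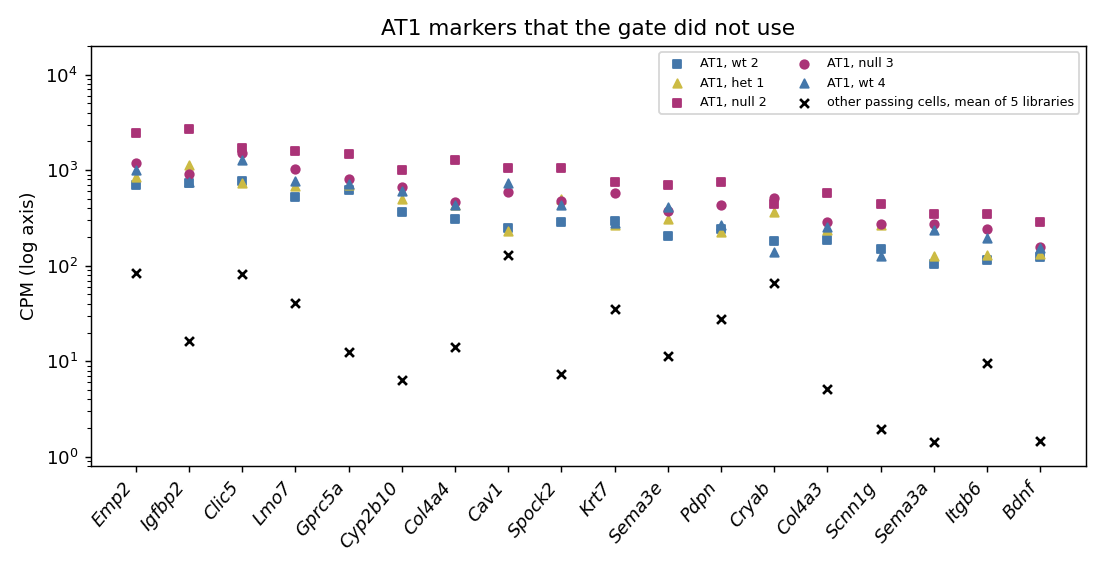
Level of the 18 AT1 markers outside the gate, in CPM on a log axis, summed over the AT1 cells of each of 5 libraries (coloured points) and averaged over the other passing cells of the same libraries (crosses). Every coloured point lies above the cross of its gene, and null replicate 2 is highest for 17 of 18 genes, Cryab being the exception.

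The markers span the functions for which AT1 cells are known. Emp2, a membrane protein of flat epithelia, was at 706 CPM in wt replicate 2, 1012 in wt replicate 4, 850 in het replicate 1, 2474 in null replicate 2 and 1191 in null replicate 3, against a mean of 84.0 CPM in other cells. It lies at chr16:10281749-10313968 on the minus strand of mm10. Igfbp2, a secreted binder of insulin-like growth factors and a marker of mature AT1 cells, was at 728, 745, 1120, 2696 and 904 CPM in the same order, against 16.1 CPM. Clic5, an intracellular chloride channel protein linked to the cortical actin network, was at 765, 1293, 735, 1713 and 1507 CPM, against 82.1 CPM. For all 3 genes the lowest AT1 library was above the other cells, and null replicate 2 was the highest.

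The gate was less clean at its lower edge. Of the 52 cells with exactly 3 gate markers, the fewest allowed, 42 also had a UMI in at least 3 markers of another class (airway, endothelial, leukocyte, fibroblast, kidney, liver, gastric, epididymal and similar lists), and their median number of outside AT1 markers was 3. Of the 73 cells with all 7 gate markers, 13 did so, and their median was 15. Just outside the rule, 110 passing cells had 2 gate markers with Ager or Rtkn2 among them and met the other conditions. A further 427 cells with at least 3 markers were left out for Sftpc, Ptprc, Pecam1 or Upk3b, most often for Ptprc, the pan-leukocyte phosphatase (223 cells), and Pecam1, an endothelial adhesion molecule (202 cells). Called doublets made up 41 of the 238 cells (17.2%). The caller marks a set share of the passing cells of each library (0.8% per 1000 barcodes, up to 25%). Without the share over all passing cells beside it, the 17.2% is not read as a trait of AT1 cells.

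**Figure D3:**
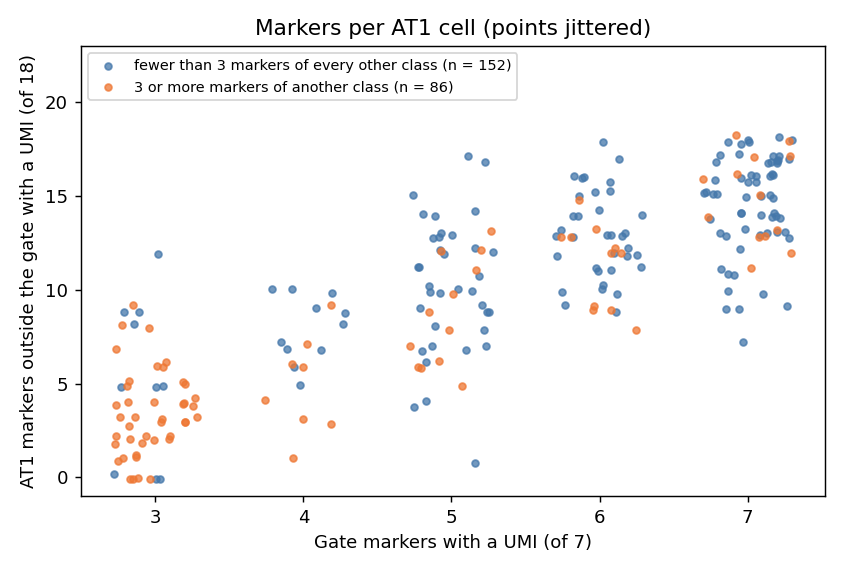
Number of gate markers (of 7) against number of AT1 markers outside the gate (of 18) in each of the 238 AT1 cells, jittered, coloured by whether the cell held 3 or more markers of another class. Cells with 3 gate markers had a median of 3 outside markers and cells with 7 had a median of 15.

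In all, 86 cells (36.1%) held 3 or more markers of another class, with AT2 and haemoglobin genes not among these classes, and these deeper cells (median 2752.5 against 1260 UMIs) carried 72.9% of the AT1 UMIs. How many of the other passing cells held 3 markers of a class not their own was not counted. The 36.1% is therefore not read as a trait of AT1 cells. In other cells the kidney tubule list summed to 369 to 2088 CPM and the epididymal list to 7.85 to 27242 CPM. Airway (club and ciliated) markers were met by 22 AT1 cells, kidney tubule markers by 27, endothelial and leukocyte markers by 24 each and epididymal markers by 11. Mesothelial, podocyte and squamous lists were met by none, with Msln, Lrrn4, Nphs1, Krt14, Krt13, Krt6a and Sprr3 at 0 UMIs. Yet the mesothelial list summed to 176 to 571 CPM in AT1 cells, above the 35.5 to 84.3 CPM in other cells. Its member Gpm6a was at 596 to 1041 CPM in AT1 cells without those 86 cells. Because library sums are dominated by the deeper cells, levels of several genes are also given for the remaining 152 cells, a choice made after the data were seen. Of those 152, 20 still held at least 3 AT2 markers outside the AT2 gate and 11 held at least 3 haemoglobin genes, with Hbb-bs at 32694 CPM in wt replicate 2 and 80.1 to 7291 CPM in the other 4 libraries.

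Without those 86 cells the levels of AT1 genes were higher and closer between libraries. This left 15 cells each in wt replicates 2 and 4, 41 in het replicate 1, and 27 and 15 in null replicates 2 and 3. The cells taken out had a median of 6 outside markers against 13 in the rest, so higher levels follow in part from the choice. All 18 outside markers had a higher mean, by 1.94 to 2.57 times, and a smaller SD relative to the mean. Ager, the receptor for advanced glycation end products and a gate gene, went from 6313 ± 2717 (SD, n = 5) to 15862 ± 2061 CPM (SD, n = 5). Pdpn, a mucin-like membrane glycoprotein of the AT1 surface, went from 385 ± 226 to 887 ± 86.7 CPM (SD, n = 5). Its level was then 764 and 1000 CPM in wt replicates 2 and 4, 863 in het replicate 1, and 927 and 881 in the null replicates. The null libraries thus lay between these wt replicates. Emp2 went from 1247 ± 710 to 2919 ± 239 CPM (SD, n = 5), with null replicate 2 at 2866 CPM. Of the 18 outside markers, null replicate 2 was then the highest library for 0, against 17 among all AT1 cells.

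Of 18 basement membrane genes, 14 were higher in AT1 cells than in other cells in every one of the 5 libraries, and the list's median fold was 6.10. Col4a3 and Col4a4, chains of the type IV collagen network that AT1 cells share with the kidney glomerulus, were at 307 ± 152 and 581 ± 389 CPM (SD, n = 5), against 5.08 and 14.2 CPM in other cells. Lama3 and Lamb3, laminin chains of epithelial basement membranes, were at 188 ± 101 and 134 ± 113 CPM (SD, n = 5), against 3.09 and 14.7 CPM. Without the 86 cells these 4 genes were at 770 ± 144, 1336 ± 228, 452 ± 184 and 309 ± 118 CPM (SD, n = 5). Npnt, a basement membrane ligand for integrins, was at 284 ± 147 CPM (SD, n = 5) against 40.6. Nid1, which links laminin to collagen, was not AT1-enriched and was higher in AT1 cells in 1 library of 5.

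The median fold over 13 ion and water transport genes, among them the gate gene Aqp5, was 13.9. Of these genes 7 were higher in AT1 cells in all 5 libraries. They included all 3 subunits of the epithelial sodium channel. Scnn1a, Scnn1b and Scnn1g were at 512 ± 255, 231 ± 140 and 252 ± 126 CPM (SD, n = 5), against 14.4, 2.42 and 1.97 CPM in other cells, and at 1122 ± 147, 451 ± 159 and 643 ± 247 CPM (SD, n = 5) without the 86 cells. Aqp5, the apical water channel and a gate gene, had a UMI in 71.4% of AT1 cells. Aqp1, the water channel of capillary endothelium, was higher in AT1 than in other cells in only 1 of 5 libraries. Nalcn itself, the targeted gene, had 0 UMIs in 875844 UMIs of AT1 cells of every genotype, and was at 0.241 CPM in other cells, so its loss could not be checked here. Prom1, whose promoter drives the recombinase, had 7 UMIs in 6 AT1 cells.

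Cav1, the coat protein of the caveolae that crowd the AT1 membrane, was at 569 ± 343 CPM (SD, n = 5) against 130 in other cells, and at 1271 ± 569 without the 86 cells. Of 7 caveolar genes 5 were higher in AT1 cells in all 5 libraries, with a median fold of 2.94. Of 13 tight and adherens junction genes, among them the gate gene Cldn18, 10 were, with a median fold of 2.57. Cgn, which anchors tight junctions to actin, was at 87.6 ± 28.8 CPM (SD, n = 5) against 7.40, and Cdh1, the epithelial cadherin, was at 267 ± 109 against 43.6. Without the 86 cells they were at 190 ± 25.9 and 515 ± 248 CPM (SD, n = 5).

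Of 18 signalling ligands and secreted factors, among them the gate gene Vegfa, 15 were higher in AT1 cells in all 5 libraries. The median fold was 6.15. Pdgfa, a ligand for alveolar fibroblast precursors, was at 393 ± 244 CPM (SD, n = 5) against 31.5 in other cells, and at 849 ± 199 without the 86 cells. Sema3a and Sema3e, guidance ligands, were at 219 ± 102 and 398 ± 185 CPM (SD, n = 5) against 1.43 and 11.2, and Bdnf, a neurotrophin, was at 171 ± 65.7 against 1.46. Of 13 transcription factors 7 were higher in every library, with a median fold of 2.70. Nkx2-1, the lung lineage factor, was at 249 ± 107 CPM (SD, n = 5) against 4.89, and at 508 ± 225 without the 86 cells. Tead1, a DNA-binding partner of YAP and TAZ, was at 366 ± 149 CPM (SD, n = 5) against 28.6, and their target genes Ctgf and Cyr61 were at 174 ± 136 and 241 ± 162 against 17.1 and 85.6. Among 12 genes of the YAP and TEAD list, 5 were higher in AT1 cells in all 5 libraries, with a median fold of 1.63.

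Cell cycle genes were at or near 0. Of 8 on the list, Mki67, Top2a, Ccnb1 and Cdk1 had 0 UMIs in AT1 cells and none had a higher mean than in other cells. Of 10 genes that the study links to invasion and epithelial-mesenchymal transition, Mmp7, Mmp9 and Mmp10 had 0 UMIs in AT1 cells, and Mmp19 and Zeb1 were at 14.4 ± 23.3 and 30.5 ± 28.5 CPM (SD, n = 5), below the other cells. Sparc, a matrix glycoprotein, and Timp3, an inhibitor of matrix proteases, belong to that list and were higher in AT1 cells in all 5 libraries, at 1346 ± 762 and 1688 ± 788 CPM (SD, n = 5) against 159 and 487. Immediate early and heat shock genes were lower on the whole: 3 of 14 had a higher mean in AT1 cells.

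At a depth of 1000 UMIs in every cell, which left 175 AT1, 54 AT2 and 8050 B cells and dropped 63, 16 and 1678 shallower ones, Emp2 had a UMI in 64.6% of AT1, 7.41% of AT2 and 2.07% of B cells. Without thinning these shares were 80.3, 25.7 and 4.45%, at median depths of 1621.5, 1845.5 and 1946 UMIs. Clic5 was detected in 63.4, 3.70 and 3.27% of thinned cells, and Lmo7, a cytoskeletal scaffold of cell junctions, in 58.9, 7.41 and 2.98%. The B cells were not chosen by lung transcripts and the AT1 cells were, so the B cell shares are no measure of free RNA in AT1 cells. The part of free RNA was not tested. Scgb1a1, the secretory protein of airway club cells, behaved otherwise, at 58.3% of AT1, 59.3% of AT2 and 38.3% of B cells.

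AT1 and AT2 cells were then compared within libraries. The gate genes of either class were left out, and since both classes were defined by transcripts, the p-values bear only on whether a difference recurred across libraries. In the 2 libraries with at least 10 cells of each class, wt replicate 2 and null replicate 2, edgeR called 0 of 575 genes at an adjusted p under 0.05 (0% either way), with 121 at an unadjusted p under 0.05 and 37 called by DESeq2. That fit had 1 residual degree of freedom. With 6 libraries of at least 2 cells of each class, an alternative chosen after the data were seen (187 AT1 and 51 AT2 cells), 51 of 419 genes were called (12.2%), 39 higher (9.31%) and 12 lower (2.86%) in AT1 cells. The count ran from 31 to 56 when any 1 of the 6 libraries was left out, with the lowest count without wt replicate 2 and 33 without wt replicate 1. Without the AT1 cells that held markers of another class it was 122 of 205 genes, 80 higher and 42 lower. The AT2 cells were not screened in the same way, and no fit of the 6 libraries was run without called doublets. Leaving doublets out would take AT2 cells from 6 to 2 in null replicate 3 and from 4 to 0 in wt replicate 4. A gene that is low in 1 class passes the filter on low counts through the class where it is high, which favours calls. Most genes below are therefore given by their counts and levels with counting intervals, which cover counting error only. These counts and ratios are pooled over the 6 libraries and not taken within libraries. Het replicate 1 gave 329318 of 785157 AT1 UMIs but 5721 of 136141 AT2 UMIs, so the ratios can also hold differences between libraries.

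Of the 18 AT1 markers outside the gate, 11 passed the filter on low counts. Most passed through the AT1 sums in which they are high, so the number called is no support for the label and the levels are given instead. Emp2 had 742 UMIs in AT1 and 15 in AT2 cells, a ratio per UMI of the class of 8.58 (exact 95% counting interval 5.17 to 15.4). Lmo7 had 547 and 12 UMIs, a ratio of 7.90 (4.49 to 15.4). Clic5 had 742 UMIs in AT1 and 3 in AT2 cells, a ratio of 42.9 (exact 95% counting interval 14.6 to 208). Igfbp2, Spock2, Col4a4 and Pdpn had no UMI in 51 AT2 cells, and against 3 counts over those cells were at least 46.6-fold, 21.1-fold, 20.1-fold and 12.9-fold higher in AT1 cells.

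Beyond the markers, Timp3 had 988 UMIs in AT1 and 18 in AT2 cells, a ratio of 9.52 (exact 95% counting interval 5.99 to 16.1), and Sparc 802 and 8, a ratio of 17.4 (8.78 to 40.4). Timp3 was at 1161 against 106 CPM in wt replicate 2, 2950 against 76.7 in null replicate 2 and 1579 against 268 in null replicate 3, AT1 before AT2. Scnn1a had 340 UMIs in AT1 and 1 in AT2 cells, a ratio of 59.0 (exact 95% counting interval 10.5 to 2335). Of 10 tested genes of the cytoskeleton and membrane list, 3 were called, all higher, where 9.31% of all 419 genes tested were. Besides Krt7, which is also an AT1 marker, these were S100a6 and Ahnak, and the filter on low counts favours such calls. S100a6, a calcium-binding protein, had 839 UMIs in AT1 and 25 in AT2 cells, a ratio of 5.82 (exact 95% counting interval 3.91 to 9.04). Ahnak, a large scaffold protein, had 476 and 24, a ratio of 3.44 (2.28 to 5.42). Pmp22, a relative of Emp2 that was singled out after its values were seen, had 666 UMIs in AT1 and 2 in AT2 cells, a ratio of 57.7 (exact 95% counting interval 15.9 to 478).

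Of the AT2 markers outside the gate, Lyz2, the lysozyme of AT2 cells and macrophages, was at 565 CPM over the AT1 and 13185 over the AT2 cells of the 6 libraries, and wt replicate 2 AT1 cells held 1717 CPM against 28.1 to 159 CPM in the AT1 cells of the 5 other libraries. Cxcl15, a chemokine of lung epithelium, was at 108 against 3981 CPM. Of 3 tested genes of surfactant lipid synthesis, Lpcat1, which remodels phosphatidylcholine, was at 91.7 CPM in AT1 and 933 in AT2 cells. Acsl4, a fatty acid activating enzyme, was at 59.9 against 426 CPM and Fabp5 at 400 against 485 CPM. The filter on low counts favours calls of genes high in AT2 cells, so levels are given and not the number called. Cd74, the invariant chain of antigen presentation, had 352 UMIs in AT1 and 344 in AT2 cells and fell by 2.02 ± 0.52 on the log2 scale (SE, edgeR adjusted p = 0.0388).

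**Figure D4:**
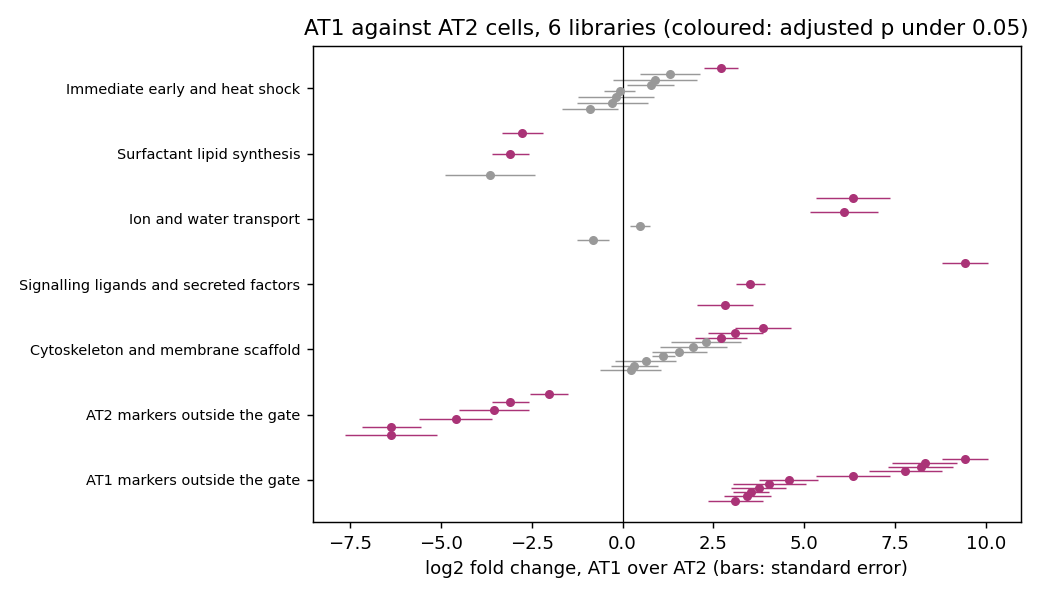
Log2 fold change of AT1 over AT2 cells with its standard error for the tested genes of 7 lists in 6 libraries, edgeR quasi-likelihood fit with library as a block, coloured where the adjusted p was under 0.05. AT1 markers lie to the right and AT2 markers to the left of 0, as the filter on low counts favours. The 4 AT1 markers with no UMI in AT2 cells (Igfbp2, Spock2, Col4a4 and Pdpn) are drawn at fitted values, which are not bounds.

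Between null and wt AT1 cells, 1 of 1734 genes was called by edgeR (0.0577%), lower in null (0% higher), in a fit of 5 libraries with 1 residual degree of freedom. None of the 18 AT1 markers outside the gate was called, and their median log2 difference was 0.40 against 0.03 over all genes tested. None of the genes tested from the basement membrane, transport, signalling or invasion lists was called. With 1 library of at least 10 AT1 cells, het tissue was not tested against wt.

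The gene called was Scgb1a1. It was at 213250 CPM in wt replicate 2 and 338925 in wt replicate 4, at 205394 in het replicate 1, and at 1142 and 502 in the null replicates. The log2 difference was -9.05 ± 0.66 (SE, edgeR adjusted p = 0.0158). The call was lost with no filter on low counts (-9.17, edgeR adjusted p = 1), without called doublets (-3.88, edgeR adjusted p = 1) and with libraries of at least 5 AT1 cells (-7.74, edgeR adjusted p = 0.999), where it was 0.61 without wt replicate 2. The level rested on few cells: 14 AT1 cells held 1312 to 34514 Scgb1a1 UMIs each, no other held more than 275, and in wt replicate 2 a single cell held 73.7% of the Scgb1a1 UMIs of its AT1 cells. All 14 were among the 22 cells with at least 3 airway markers, of which 4 lay in wt replicate 2, 3 in wt replicate 4, 10 in het replicate 1 and 0 in either null library. Over the 6 airway markers together, AT1 sums were 218003 and 346835 CPM in the wt, 212053 in the het and 1745 and 775 CPM in the null libraries. Scgb1a1 is itself 1 of these 6 markers and made up most of each sum. Neither these sums nor the choice of the 22 cells is therefore independent of it. Markers of the epididymis also varied: the 6 genes summed to 515 and 0 CPM in wt replicates 2 and 4, 28860 in het replicate 1 and 761 and 48894 in the null replicates, with a median log2 difference of 5.16 and none called. Without het replicate 1, 3 of them (Defb20, Spag11b and Gpx5) were called higher in null. The part of the epididymal markers was not tested. The choice of the 86 cells with markers of another class rested partly on Scgb1a1 itself. Without them its log2 difference was 0.53 with an adjusted p of 0.922 by edgeR. In that fit 1 gene was called, the immunoglobulin light chain gene Igkc, with a log2 difference of -3.98 (edgeR adjusted p = 0.0168). In the other cells Scgb1a1 was at 7192 and 1078 CPM in wt replicates 2 and 4 and 5611 and 5443 CPM in the null libraries, where 28 and 29 of the other cells held at least 1000 Scgb1a1 UMIs. In AT2 cells it was at 2674 CPM in wt replicate 2 (17 cells), 411 in wt replicate 4 (4 cells) and 404125 in het replicate 1 (2 cells). In AT2 cells of the null libraries it was at 1994 CPM in replicate 2 (19 cells) and 343272 in replicate 3 (6 cells). Without called doublets null replicate 3 kept 2 AT2 cells and wt replicate 4 kept 0. These AT2 levels were not tested between genotypes.

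**Figure D5:**
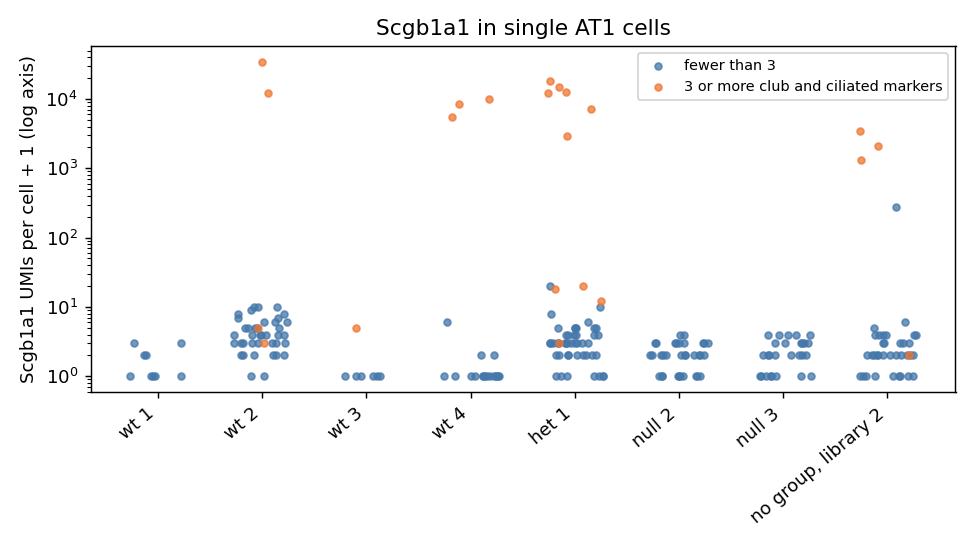
Scgb1a1 UMIs plus 1 in single AT1 cells on a log axis, by library (libraries with at least 7 AT1 cells), coloured by whether the cell held 3 or more airway markers, a list that includes Scgb1a1. The 14 cells above 1000 UMIs lie in wt replicates 2 and 4, het replicate 1 and 1 library without a group, and none lies in a null library.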

How the data were processed

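Single-cell suspensions of pooled, hashtagged organs were captured with the 10x Chromium 3′ v3 kit. Per the labels and file headers, the authors aligned reads to mm10 with Cell Ranger (version 3.0.2 by the headers of the matrices, 2.1.1 by the submitters' processing notes, which also list Seurat) and deposited filtered matrices of whole-number UMI counts for 31053 genes, with no normalization. Organ hashtags were not read, so the organ of a cell is unknown here. Gene identifiers were matched to GENCODE vM21 (30934 found).

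Members and gene lists were chosen with earlier results of these data known. Levels are CPM, UMIs per 1000000 summed over the cells of a library; 3′ UMI counts are not scaled by length, and levels are compared between samples, not between genes. Counts were summed per library and class, libraries with at least 10 cells were tested with the edgeR 4.0.16 quasi-likelihood test (TMM, filterByExpr, Benjamini-Hochberg at 0.05, sex as covariate for genotype, library as block for AT1 against AT2), and DESeq2 1.42.0 was an alternative. SE is the log2 fold change divided by the square root of F. Shares were tested by exact two-sided permutation over libraries. Limits for 0 use 3 counts and intervals are 95% exact. Doublets were scored by Scrublet (scanpy 1.11.5; 0.8% per 1000 barcodes, up to 25%) and kept in the main results, as the rule does not name them. The code was tested on simulated data. Named genes followed list membership, the 12 largest called changes each way for AT1 against AT2 (none in the 2-library fit) and up to 5 called genes for genotype. The genotype fit had 1 residual degree of freedom, so leaving out a wt or null library left no test. The AT1 per AT2 ratio and the AT2 genotype fit had 1 library a side and were not tested. Some list members are not reported here.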

Additional observations from a re-analysis of the deposited data

Results flagged for a closer look

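The AT1 share in the second library without a group, 0.244% of its passing cells (39 of 15974), was above the highest wt library (0.236%). Its title and strain entry named different genotypes, so it entered no comparison.

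In null replicate 3, labelled female, 5.21% of passing cells held Y-linked transcripts and no Xist, against 0% in the female wt libraries. Of its AT1 cells none held Y-linked transcripts alone, but 5 held at least 3 epididymal markers, and its AT1 sum of the 6 epididymal genes was 48894 CPM, against 0 in the female wt replicate 4. Its label names uterus and no epididymis. Sex was a covariate by this label, and without it 2 genes were called between null and wt in place of 1.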

How the results depend on the processing

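The null against wt share kept its direction in all alternatives run, none of which dropped the step on Sftpc, Ptprc, Pecam1 and Upk3b. Its difference is given here. It was 0.156 percentage points on thinned cells, 0.169 without doublets and 0.0869 at 10% mitochondrial UMIs, none past the threshold, and 0.155 to 0.246 when 1 library was left out. With at least 4 gate markers it was 0.186, and without cells with markers of another class 0.158, both at an exact permutation p of 0.0476. The het difference ran from -0.0836 to 0.600 when 1 library was left out. AT1 per AT2 cell, null minus wt, was -0.793, but 0.0451 on thinned cells and 0.539 without cells with markers of another class.

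For null against wt genes, 1 was called as reported, 7 by DESeq2, 0 with no filter, 0 without doublets, 10 with at least 4 gate markers, 3 with at least 3 outside markers (Scgb1a1, Scgb3a2 and Cyp2f2), 2 without the sex covariate (Scgb1a1 and Scgb3a2), and 12 without het replicate 1, the only library that could be left out at 10 cells. With at least 5 cells 0 were called, also 0 when any 1 library was left out of that fit. Scgb1a1 ran from -9.92 to 0.61 on the log2 scale when 1 library was left out at either minimum, the 0.61 without wt replicate 2 among libraries with at least 5 cells, and was 0.53 without cells with markers of another class. A replicate block over the 2 numbers shared at 5 cells, with sex left out, called 0. At the main minimum of 10 cells this block could not be fitted because only replicate number 2 occurs in both groups. The labels number the replicates and name no pair of a wt with a null library, so the block is not a known pairing.

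For AT1 against AT2, where 0 were called in 2 libraries, 4 alternatives also called 0 (RLE size factors, no filter, no doublets, at least 20 Sftpc UMIs). DESeq2 called 37, at least 4 gate markers 24, thinned cells 37, at least 3 outside markers 1, no cells with markers of another class 35, no replicate block (library term left out) 38, and 6 libraries 51 (122 without cells with markers of another class, and 31, 33, 39 and up to 56 when 1 library was left out, these without wt replicate 2, wt replicate 1, null replicate 2 and het replicate 1). The cause of these differences was not tested. Fits at 10% mitochondrial UMIs and, for AT1 against AT2, at 20 cells could not be made, and no alternative for het genes was run, since 1 het library had enough cells.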
